A study of Mus musculus with 20 samples.

Results

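The variable (V) genes of the immunoglobulin heavy chain and of the kappa light chain were taken as every row of the mouse count table whose gene symbol starts with Ighv or Igkv. 86 of the 37620 gene rows met this rule, 27 of them heavy and 59 kappa. Messenger RNA was sequenced from cells that CD45R microbeads had enriched for B220, a CD45 isoform found on B cells, taken from mice of the C57BL/6 background. The 8 Myc lymphomas carry the label VavPBcl2/Myc, the 8 vector lymphomas the label VavPBcl2/vector and the 4 normal samples the label normal spleen. VavPBcl2 denotes a Bcl2 transgene, whose product keeps cells from apoptosis, under the promoter of Vav, which is active throughout the blood lineages, and the lymphomas of this model had been transduced with Myc or with an empty vector. Both lymphoma groups therefore share the Bcl2 transgene, which the label of the normal samples does not name. No age is given, and whether replicates were separate mice is not in the labels, so a p-value here reflects sample-to-sample spread only.

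A B cell builds the gene for its heavy chain by joining 1 V, 1 D and 1 J segment, and the gene for its kappa chain by joining 1 V and 1 J segment. The joined V segment is then transcribed together with a constant region, and all descendants of a cell inherit the same joints. A population grown from many B cells therefore uses many V genes, whereas in the offspring of a single B cell 1 heavy and 1 light V gene are expected in the messages. The heavy V genes lie on mouse chromosome 12 and the kappa V genes on chromosome 6.

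The V exons of the 6 genes below are shown because these genes held the largest shares of a chain in the lymphomas or are compared with one that did. Ighv7-1 and Igkv5-39 dominated vector lymphoma 4, Ighv3-6 was the largest heavy gene in 12 of 20 samples, Igkv3-7 led in vector lymphoma 2 and Igkv15-103 in Myc lymphoma 1, and Igkv5-48 is a family member of Igkv5-39 in the same table. The sequences are germline exons, cut to their last 300 bases where longer, from the GENCODE vM21 transcripts on GRCm38, read 5′ to 3′, and they include no bases added or mutated in a B cell. Capitals mark the codons for tyrosine, tyrosine and cysteine that precede the junction with the next segment. Their positions are chr12:113896408-113896707 for Ighv7-1 and chr12:114288152-114288451 for Ighv3-6, both on the minus strand, chr6:69900424-69900721 for Igkv5-39 and chr6:69726573-69726870 for Igkv5-48, both on the minus strand, and chr6:70607737-70608036 for Igkv3-7 and chr6:68437628-68437925 for Igkv15-103, both on the plus strand.
Ighv7-1: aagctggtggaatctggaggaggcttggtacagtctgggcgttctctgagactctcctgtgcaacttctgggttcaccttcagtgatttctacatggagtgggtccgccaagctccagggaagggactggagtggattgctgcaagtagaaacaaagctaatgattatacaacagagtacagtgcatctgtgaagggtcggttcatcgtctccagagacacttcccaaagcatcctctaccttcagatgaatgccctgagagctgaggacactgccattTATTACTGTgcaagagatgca
Ighv3-6: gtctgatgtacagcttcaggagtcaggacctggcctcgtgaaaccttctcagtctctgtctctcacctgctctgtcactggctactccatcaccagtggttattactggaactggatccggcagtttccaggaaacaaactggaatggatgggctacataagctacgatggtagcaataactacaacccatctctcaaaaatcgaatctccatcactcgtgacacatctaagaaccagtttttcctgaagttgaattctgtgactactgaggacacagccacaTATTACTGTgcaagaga
Igkv5-39: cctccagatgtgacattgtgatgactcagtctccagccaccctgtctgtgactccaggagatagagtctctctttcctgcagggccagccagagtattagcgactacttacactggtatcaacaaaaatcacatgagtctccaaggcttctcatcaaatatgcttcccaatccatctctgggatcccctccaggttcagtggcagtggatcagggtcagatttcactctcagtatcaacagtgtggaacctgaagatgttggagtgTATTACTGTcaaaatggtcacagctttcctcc
Igkv5-48: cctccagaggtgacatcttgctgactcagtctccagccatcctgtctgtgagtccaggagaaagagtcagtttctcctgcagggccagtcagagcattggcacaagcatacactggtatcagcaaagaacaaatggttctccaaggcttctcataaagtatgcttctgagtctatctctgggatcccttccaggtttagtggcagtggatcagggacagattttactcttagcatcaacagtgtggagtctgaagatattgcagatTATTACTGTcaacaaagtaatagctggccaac
Igkv3-7: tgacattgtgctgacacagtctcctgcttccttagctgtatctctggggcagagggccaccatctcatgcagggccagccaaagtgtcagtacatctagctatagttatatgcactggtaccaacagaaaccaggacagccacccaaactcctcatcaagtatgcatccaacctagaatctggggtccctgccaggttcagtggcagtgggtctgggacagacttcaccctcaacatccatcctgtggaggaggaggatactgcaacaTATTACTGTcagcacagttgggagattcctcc
Igkv15-103: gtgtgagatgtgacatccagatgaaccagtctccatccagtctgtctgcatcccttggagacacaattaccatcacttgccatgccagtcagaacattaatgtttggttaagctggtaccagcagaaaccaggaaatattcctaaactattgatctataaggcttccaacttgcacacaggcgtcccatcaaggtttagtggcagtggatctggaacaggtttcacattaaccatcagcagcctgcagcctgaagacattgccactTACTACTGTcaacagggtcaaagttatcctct
The exons of Ighv3-6 and Ighv7-1 share 64.5% of bases over the whole exons, and those of Igkv5-39 and Igkv5-48 share 83.2%. Igkv15-103 has TACTACTGT where the other 5 have TATTACTGT. On the coding strand, TATTACTGT was found in 64 of 113 annotated heavy V exons (56.6%) and in 41 of 100 kappa V exons (41.0%).

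The table sees only a part of the repertoire. GENCODE vM21 annotates 113 heavy and 100 kappa V genes apart from pseudogenes, against 27 and 59 rows in the table, and the counts reflect reads that could be assigned to a single gene. Reads with several alignments are in no gene row. They were 22.2 to 40.3% of the reads of a sample in Myc lymphomas, 15.4 to 31.3% among vector lymphomas and 14.3 to 17.9% in normal samples. This loss was thus unequal between the groups, without overlap between Myc lymphomas and normal samples. Its part in the V counts was not tested. A nearest relative of at least 95% identity was found for 7 of the 25 heavy and 20 of the 53 kappa members whose V exon could be aligned, and counts of such genes are uncertain. Among the genes shown, Igkv3-7 is 96.8% identical to Igkv3-12, while Igkv5-39 is 91.6% identical to Igkv5-45, Ighv3-6 is 93.5% identical to Ighv3-1 and Ighv7-1 is 89.2% identical to Ighv7-3. 2 heavy and 6 kappa members are annotated as pseudogenes, and 3 heavy and 1 kappa member had no count in any sample. The share of a V gene below is a share of the assigned V counts and not of the antibody messages.

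Each sample held 28.7 to 56.3 M gene counts (M for 1e6). Of these, 2763 to 187911 fell on heavy V genes and 18829 to 579510 on kappa V genes, so that the 95% Wilson interval of the largest share of a chain reached at most 1.67 percentage points to either side for heavy and 0.44 for kappa genes. A count of 0 allows a share of up to 0.109% of the heavy V counts, in Myc lymphoma 5, and of less in all other samples. These intervals and limits cover counting error only, since reads are not independent molecules. The descriptions number the runs separately on each of 4 instruments. On every instrument the lower numbers form an earlier set, which holds all Myc lymphomas, vector lymphomas 7 and 8 and normal samples 2 to 4, and the higher numbers a later set with vector lymphomas 1 to 6 and normal sample 1. Run and group thus overlap. The level of Myc itself was 313 to 1646 CPM (counts per 1e6, over library sizes scaled by TMM) in Myc lymphomas, 48.3 to 226 CPM among vector lymphomas and 179 to 343 CPM in normal samples. All 7 B cell markers looked for were present in every sample, with a summed level of 1690 to 5350 CPM in Myc lymphomas, 5900 to 9400 CPM among vector lymphomas and 6310 to 7370 CPM in normal samples.

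Myc lymphomas had the same largest heavy gene in every sample, vector lymphomas 5 different ones. In Myc lymphomas Ighv3-6 led in 8 of 8 samples, with a share of the heavy V counts that was lowest at 14.9%, had a median of 24.8% and reached 39.9% in Myc lymphoma 4. In vector lymphomas the share of Ighv3-6 ran between 4.66% and 29.0% with a median of 14.2%, and it was largest in lymphomas 5, 6 and 7. In the 4 normal samples it held 14.04%, 19.9%, 15.7% and 16.8%, and the 3 groups overlapped. Ighv3-6 was also the largest or second largest heavy gene in every vector lymphoma and every normal sample. In Myc lymphoma 7 its lead was small, with 14.85% (95% Wilson interval 14.09 to 15.65%) beside 14.2% for Ighv6-3. Ighv7-1 held 81.9% (95% Wilson interval 81.7 to 82.1%) in vector lymphoma 4, at most 9.18% in the other 7 vector lymphomas, 2.54 to 6.70% in Myc lymphomas and 7.11 to 13.8% in normal samples. No other heavy gene passed 50% of its chain in any sample. The remaining leading heavy genes of vector lymphomas were Ighv14-4 in lymphoma 1 (15.4%), Ighv6-3 in lymphomas 2 (25.7%) and 8 (24.6%) and Ighv6-6 in lymphoma 3 (32.5%). Ighv3-8 came next in vector lymphoma 7 with 22.8%, beside 28.9% for Ighv3-6, whereas Ighv3-8 held 2.41 to 3.21% in normal samples.

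**Figure D1:**
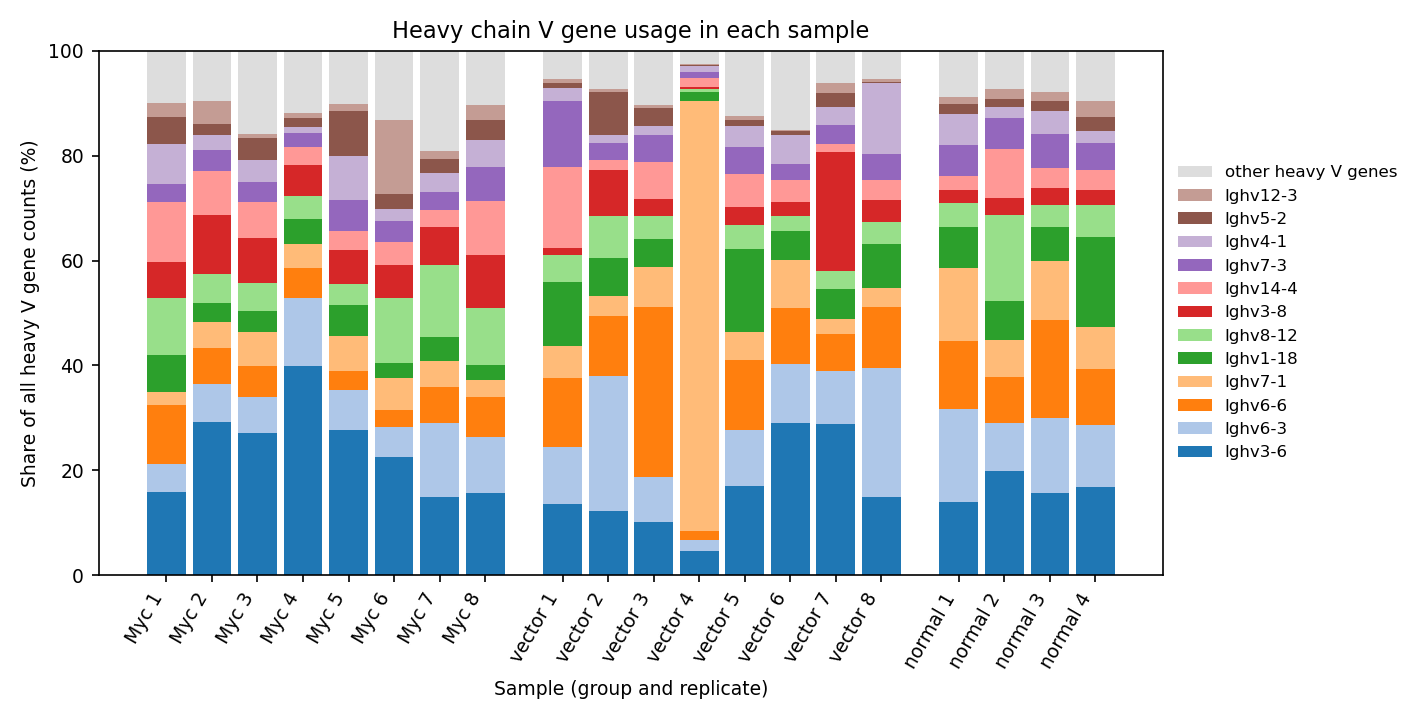
Share of all heavy V gene counts (percent, vertical axis, from 0) held by each of the 12 heavy V genes with the highest share in any sample, stacked for each Myc lymphoma, vector lymphoma and normal spleen sample, with all other heavy V genes in grey. Ighv7-1 fills 81.9% of vector 4, while no gene exceeds 39.9% in any Myc lymphoma or 19.9% in any normal sample.

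In normal samples the 5 heavy genes of largest mean share were Ighv3-6 with 16.6 ± 2.5%, Ighv6-3 with 13.2 ± 3.6%, Ighv6-6 with 12.8 ± 4.3%, Ighv7-1 with 10.1 ± 3.1% and Ighv1-18 with 9.74 ± 5.01% (SD, n = 4). A different gene of this set led in each normal sample: Ighv6-3 in sample 1 (17.7%), Ighv3-6 in sample 2 (19.9%), Ighv6-6 in sample 3 (18.6%) and Ighv1-18 in sample 4 (17.2%). In sample 4, Ighv3-6 came close behind with 16.8%. By family, the 3 Ighv3 genes together held 24.5 to 48.8% of the heavy V counts in Myc lymphomas (median 35.1%), 5.15 to 52.2% among vector lymphomas (median 20.8%) and 17.1 to 24.1% in normal samples (median 19.96%). Every Myc lymphoma thus lay above the highest normal sample in the summed share of this family, by a small margin (24.5 against 24.1%). This was not particular to Ighv3 among the 13 heavy and 16 kappa families. The Igkv12 genes went the other way, with at most 7.86% in Myc lymphomas and at least 9.23% in normal samples. So did the Igkv13 genes, with at most 1.62% and at least 2.07%. None of these was tested. The 3 Ighv6 genes held 9.48 to 28.8% in Myc lymphomas, 4.12 to 48.3% among vector lymphomas and 19.2 to 34.6% in normal samples.

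Igkv5-39 was the largest kappa gene in 6 of 8 Myc lymphomas, 7 of 8 vector lymphomas and 1 of 4 normal samples. Its share of the kappa V counts was 5.45 to 17.6% in Myc lymphomas (median 12.2%) and 6.69 to 72.4% in vector lymphomas (median 21.0%), against 5.37%, 11.8%, 5.40% and 9.01% in the normal samples. 7 of 8 vector lymphomas and 4 of 8 Myc lymphomas lay above the highest normal sample. It held 72.4% (95% Wilson interval 72.3 to 72.6%) of the kappa V counts in vector lymphoma 4 and 57.0% (56.7 to 57.2%) in vector lymphoma 5, and these were the only samples in which a kappa gene passed 50%. In vector lymphoma 5 the next gene was Igkv17-121 with 13.7%, which held 1.73 to 4.67% in normal samples.

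Single samples had other leading kappa genes. Igkv3-7 held 27.9% in vector lymphoma 2 and at most 9.85% in the other vector lymphomas, 0.766 to 9.18% in Myc lymphomas and 0.990 to 1.57% in normal samples. Igkv15-103 held 23.8% in Myc lymphoma 1 and at most 3.38% in the other Myc lymphomas, 0.591 to 1.31% among vector lymphomas and 2.57 to 5.16% in normal samples. Igkv4-74 held 17.3% in Myc lymphoma 6 and at most 6.08% in the other Myc lymphomas, 0.159 to 6.38% among vector lymphomas and 0.668 to 1.47% in normal samples. In vector lymphoma 3, Igkv2-137 with 17.8% came close behind Igkv5-39 with 18.1%. In vector lymphoma 7, Igkv11-106, which GENCODE vM21 annotates as a pseudogene, held 16.5% of the kappa V counts beside 22.1% for Igkv5-39.

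**Figure D2:**
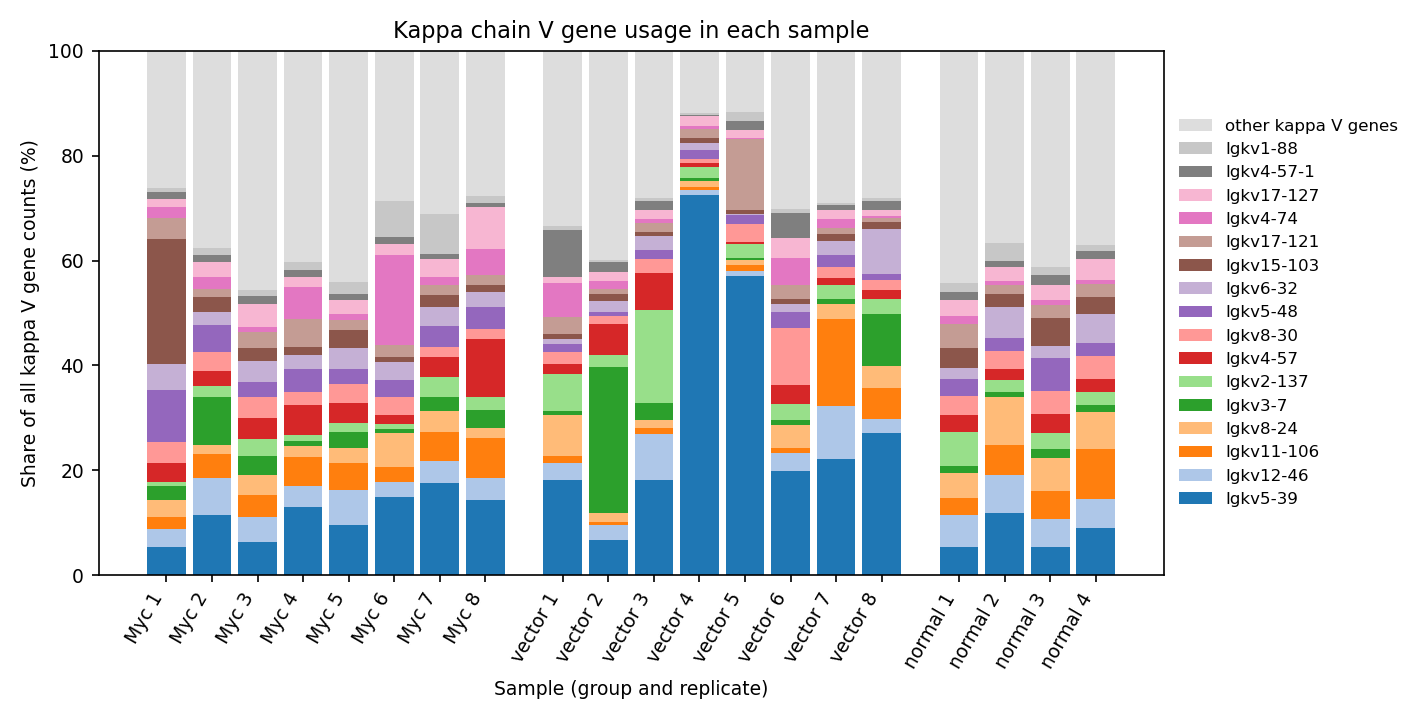
Share of all kappa V gene counts (percent, vertical axis, from 0) held by each of the 16 kappa V genes with the highest share in any sample, stacked for each Myc lymphoma, vector lymphoma and normal spleen sample, with all other kappa V genes in grey. Igkv5-39 at the foot of each bar fills 72.4% of vector 4 and 57.0% of vector 5, and 5.37 to 11.8% of the normal samples.

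The kappa genes of largest mean share in normal samples were Igkv5-39 with 7.89 ± 3.11%, Igkv8-24 with 6.86 ± 1.83%, Igkv12-46 with 6.05 ± 0.90%, Igkv11-106 with 5.94 ± 2.66% and Igkv8-30 with 3.97 ± 0.47% (SD, n = 4). The leading kappa gene differed between all 4 normal samples: Igkv2-137 (6.51%), Igkv5-39 (11.8%), Igkv5-48 (6.36%) and Igkv11-106 (9.56%) in samples 1 to 4. Some of these leads were small. The next genes were Igkv12-46 with 6.09% in sample 1, Igkv8-24 with 6.33% in sample 3 and Igkv5-39 with 9.01% in sample 4. With counts divided by exon length, Igkv12-46 led in sample 1. Igkv8-24 held 1.70 to 6.55% in Myc lymphomas, 0.995 to 7.84% among vector lymphomas and 4.82 to 9.22% in normal samples. The 19 Igkv4 genes, the largest kappa family in the table, together held 17.3 to 31.5% in Myc lymphomas, 6.33 to 31.5% among vector lymphomas and 18.0 to 20.3% in normal samples.

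Kappa usage was most concentrated in vector lymphomas. The largest kappa gene held 14.2 ± 5.4% of the kappa V counts in Myc lymphomas, 32.8 ± 20.4% among vector lymphomas and 8.55 ± 2.61% in normal samples (SD, n = 8, 8 and 4). It was 18.7 percentage points lower in Myc than in vector lymphomas (exact two-sided permutation test, adjusted p = 0.016), and 24.3 points higher in vector lymphomas than in normal samples, with no overlap (adjusted p = 0.016). The first of these was not called without V genes that have a near-identical relative, an alternative added after the data were seen (-18.43 points, exact permutation test, adjusted p = 0.087). The difference of 5.62 points between Myc lymphomas and normal samples did not pass (adjusted p = 0.13). All p-values of this kind were Benjamini-Hochberg adjusted over 24 tests, and 8 against 4 samples cannot give an unadjusted p below 0.0040.

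The effective number of V genes, the inverse Simpson index, counts how many equally used genes would give the same concentration. For kappa it ran from 11.6 to 29.7 in Myc lymphomas with a median of 18.7, from 1.89 to 14.4 in vector lymphomas, and was 29.4, 21.0, 28.0 and 23.1 in the normal samples. All vector lymphomas lay below all normal samples, and their mean on the log2 scale was 1.71 lower, a ratio of 0.305 (exact permutation test, adjusted p = 0.016). Myc lymphomas lay 1.26 above vector lymphomas on the log2 scale, a ratio of 2.39 (exact permutation test, adjusted p = 0.016), and 0.45 below normal samples (adjusted p = 0.14). The lowest values were those of vector lymphomas 4 (1.89) and 5 (2.88). Leaving out Myc lymphoma 3, which has the highest value among the lymphomas, brought the difference between Myc lymphomas and normal samples to -0.55 (exact permutation test, adjusted p = 0.044). Without Igkv5-39, an alternative added after the data were seen, the largest kappa share differed by -6.51 points between Myc and vector lymphomas (exact permutation test, adjusted p = 0.20) and by 10.2 points between vector lymphomas and normal samples (adjusted p = 0.055), and the log2 effective number differed by 0.50 between Myc and vector lymphomas (adjusted p = 0.15).

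For the heavy chain no comparison of concentration passed. The largest heavy gene held 24.1 ± 8.6% of the heavy V counts in Myc lymphomas, 31.9 ± 21.1% among vector lymphomas and 18.3 ± 1.2% in normal samples (SD, n = 8, 8 and 4; exact permutation tests, adjusted p = 0.48 for Myc against vector, 0.11 for vector against normal and 0.25 for Myc against normal). Without vector lymphoma 4 the difference between Myc and vector lymphomas was -0.63 points, against -7.78 points with it. The effective number of heavy V genes was 5.16 to 11.5 in Myc lymphomas with a median of 9.07, 1.48 to 9.63 in vector lymphomas, and 9.45, 9.24, 9.21 and 9.82 in the normal samples. On the log2 scale it was 0.58 lower in vector lymphomas than in normal samples (exact permutation test, adjusted p = 0.062), and this difference passed without vector lymphoma 5 (-0.67, adjusted p = 0.020). Between Myc and vector lymphomas it differed by 0.51 (adjusted p = 0.18), which passed without Myc lymphoma 4 (0.62, exact permutation test, adjusted p = 0.036). Counts were found for 20 to 23 of the 27 heavy rows and for 54 to 58 of the 59 kappa rows in each sample.

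**Figure D3:**
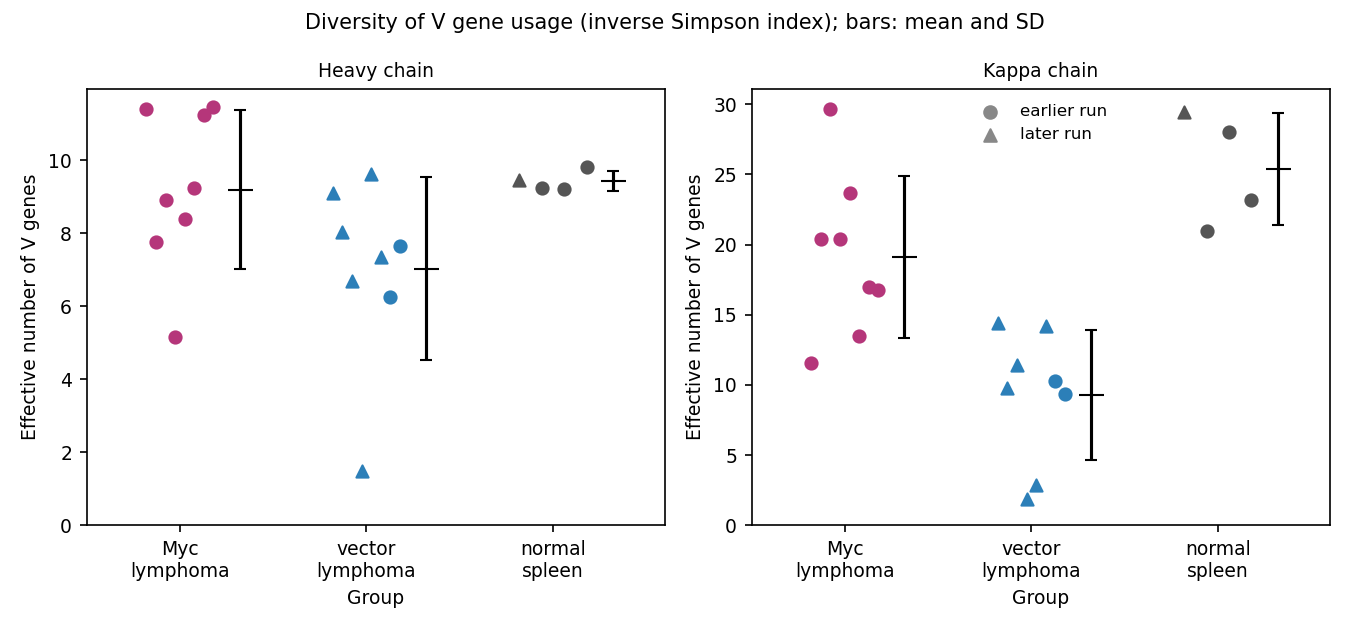
Effective number of heavy (left) and kappa (right) V genes per sample (vertical axes, from 0) for Myc lymphomas, vector lymphomas and normal spleen, with circles for earlier and triangles for later runs and bars for mean and SD. Every vector lymphoma lies at or below 14.4 for kappa, while the normal samples lie between 21.0 and 29.4.

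Within the earlier runs alone, with 8 Myc lymphomas, 2 vector lymphomas and 3 normal samples, no comparison passed, and 2 against 3 samples cannot give a two-sided p below 0.2. For Myc against vector lymphomas, 8 against 2 samples cannot give one below 0.04444. The kappa effective number and the summed kappa level reached this value (exact permutation tests). After adjustment over 24 tests, no comparison with vector lymphomas could therefore pass, so these adjusted p cannot show that a difference was lost. In these runs the largest kappa gene held 14.2 ± 5.4% in Myc lymphomas, 22.1% and 27.2% in the 2 vector lymphomas and 6.36 to 11.8% in normal samples. The kappa effective number was 11.6 to 29.7 in Myc lymphomas, 10.3 and 9.37 in vector lymphomas 7 and 8, and 21.0 to 28.0 in normal samples. The groups kept this order of means, and the log2 differences were 0.90 for Myc against vector lymphomas and -1.28 for vector lymphomas against normal samples (exact permutation tests, adjusted p = 0.31 each).

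The heavy and kappa chains of a lymphoma were then set side by side. In vector lymphoma 4 a single gene held most of each chain, Ighv7-1 with 81.9% and Igkv5-39 with 72.4%. Vector lymphoma 5 had a kappa chain led by Igkv5-39 with 57.0%, while its assigned heavy V counts were spread over Ighv3-6 (17.0%), Ighv1-18 (15.9%) and Ighv6-6 (13.3%). Its heavy V counts were 3.63% of its heavy constant counts, and its kappa V counts 28.5% of its Igkc counts. With 27 heavy rows against 113 annotated genes, a leading heavy gene outside the table would not be seen. The same lymphoma had the highest Ighj1 share of all samples (71.9%). A gene above 50% was found for the heavy chain in 1 vector lymphoma, for kappa in 2 and for both chains in 1, and in none of the 8 Myc lymphomas or 4 normal samples. At 30% the heavy counts were 1 Myc and 2 vector lymphomas. The pair Ighv3-6 and Igkv5-39 led in 6 of 8 Myc lymphomas, 3 of 8 vector lymphomas and 1 of 4 normal samples.

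The largest heavy and the largest kappa share showed no relation that passed the test in either lymphoma group. Pearson's r was -0.59 in Myc lymphomas (exact permutation p = 0.12, adjusted p = 0.24 over 4 relations; Spearman's rho -0.64, p = 0.096, adjusted p = 0.24; n = 8). In vector lymphomas r was 0.66 (exact permutation p = 0.20, adjusted p = 0.27) and rho 0.048 (p = 0.93, adjusted p = 0.93). The vector value rests on single lymphomas: r was -0.51 without lymphoma 4 and 0.95 without lymphoma 5. Without the 2 samples farthest from the median in the heavy share, which leaves out lymphoma 4 and keeps lymphoma 5, r was -0.96. For Myc lymphomas r was -0.77 without the 2 farthest samples.

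**Figure D4:**
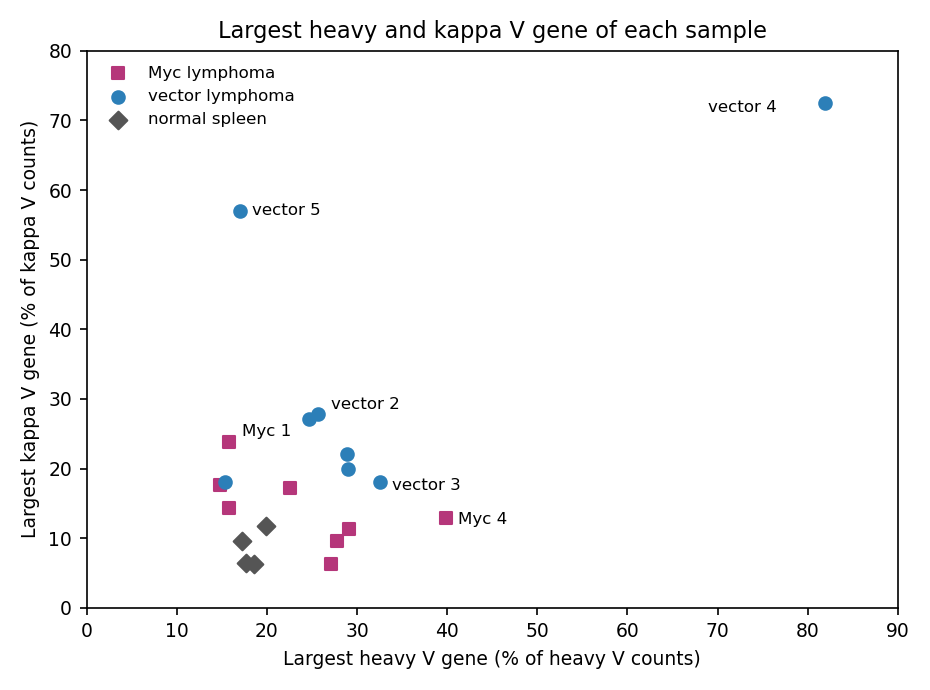
Largest heavy V gene (percent of heavy V counts, horizontal axis) against largest kappa V gene (percent of kappa V counts, vertical axis), 1 point per sample, with squares for Myc lymphomas, circles for vector lymphomas and diamonds for normal spleen. Vector 4 stands at 81.9% and 72.4%, vector 5 at 17.0% and 57.0%, and all normal samples lie below 20% and 12% on the axes.

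To see which genes of a lymphoma stand above the normal usage, a gene was called raised where it held at least 5% of its chain and at least 3 times its highest normal share, a rule chosen after the data were seen and given without a test. Raised heavy genes were found in 5 of 8 Myc lymphomas and 4 of 8 vector lymphomas, raised kappa genes in 4 of 8 Myc lymphomas and 6 of 8 vector lymphomas, and none when each normal sample was set against the other 3. Both chains had a raised gene in 2 Myc and 3 vector lymphomas. The largest multiples were those of Igkv3-7 in vector lymphoma 2, at 17.8 times the highest normal share, Igkv4-74 in Myc lymphoma 6, at 11.7 times, and Ighv3-5 in vector lymphoma 6, at 8.65 times with a share of 8.48%. Myc lymphoma 6 had raised genes on both chains, Ighv12-3 with 14.01% and Igkv4-74 with 17.3%. Myc lymphoma 2 had Ighv3-8 with 11.3% and Igkv3-7 with 9.18%.

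Joining segments gave a further view of the same chains. Their shares are shares of the assigned J counts only. Ighj2 held at most 0.217% of the heavy J counts in any sample, so the heavy J shares are in effect those of Ighj1, Ighj3 and Ighj4. Vector lymphoma 4, with the most heavy V counts of all samples, had the fewest heavy J counts among vector lymphomas (22034). In vector lymphoma 4, Igkj2 held 68.6% of the kappa J counts, against 21.7 to 49.1% in the other vector lymphomas, 25.8 to 41.4% in Myc lymphomas and 37.9 to 47.0% in normal samples. Ighj4 held 47.6% of the heavy J counts in that lymphoma, at most 30.8% in the other vector lymphomas, 28.9 to 46.9% in Myc lymphomas and 42.2 to 44.2% in normal samples. Vector lymphoma 5 had the highest share of Ighj1, with 71.9%, against 30.23 to 57.46% in the other vector lymphomas, 27.85 to 47.97% in Myc lymphomas and 34.3 to 38.3% in normal samples. The 3 lambda V genes in the table, of the other light chain, summed to 231 to 1631 CPM in Myc lymphomas, 321 to 1483 CPM among vector lymphomas and 119 to 265 CPM in normal samples.

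V gene messages were most abundant in vector lymphomas. The summed level of the heavy V genes was 119 to 1407 CPM in Myc lymphomas with a median of 409.6 CPM, 691 to 4012 CPM in vector lymphomas with a median of 1434 CPM, and 163, 224, 223 and 138 CPM in the normal samples. For kappa the summed level was 612 to 5082 CPM in Myc lymphomas with a median of 1730 CPM, 3351 to 10540 CPM in vector lymphomas with a median of 4214 CPM, and 330 to 828 CPM in normal samples. All vector lymphomas lay above all normal samples in both sums, by 2.998 on the log2 scale for heavy, a 7.99-fold difference, and by 3.13 for kappa, 8.73-fold (exact permutation tests, adjusted p = 0.016 each). Myc lymphomas lay below vector lymphomas, by -1.85 for heavy (exact permutation test, adjusted p = 0.024) and by -1.55 for kappa (adjusted p = 0.029). The kappa difference missed the threshold when any 1 of Myc lymphomas 5, 6, 7 or 8 or vector lymphomas 4 or 8 was left out (adjusted p up to 0.055), and without Igkv5-39 (-1.11, adjusted p = 0.14). Myc lymphomas and normal samples differed by 1.15 for heavy (exact permutation test, adjusted p = 0.22) and 1.58 for kappa (adjusted p = 0.097), which did not pass.

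**Figure D5:**
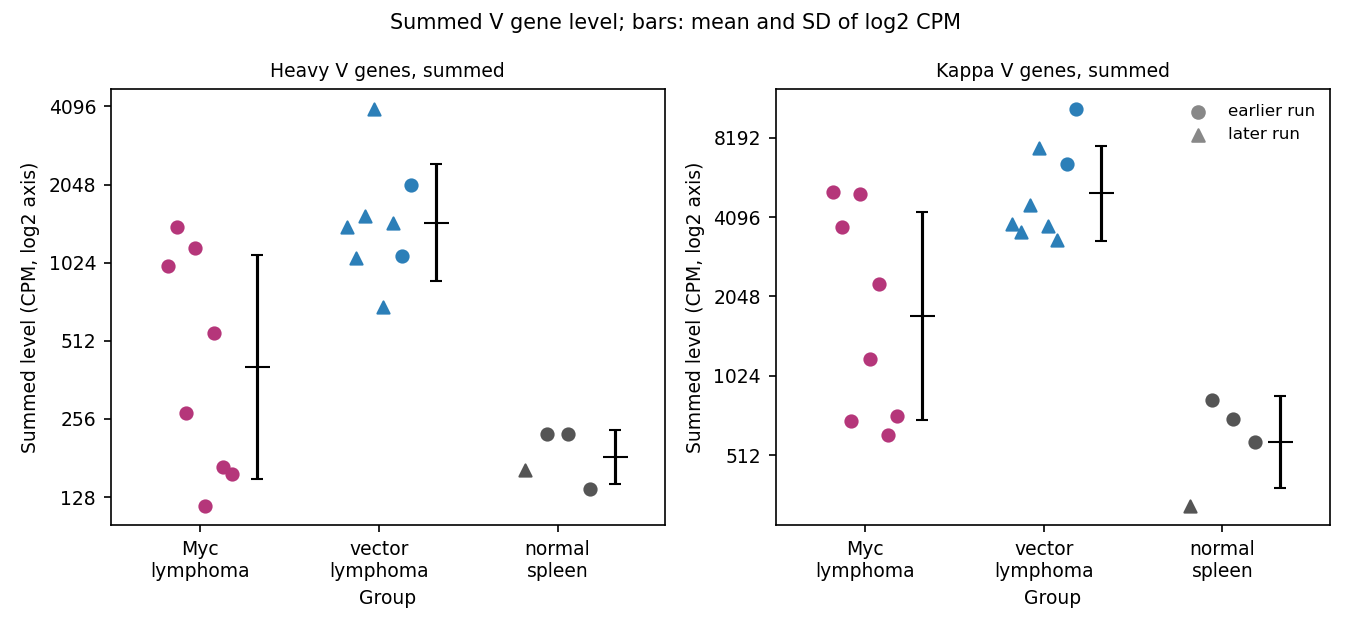
Summed level of all heavy (left) and all kappa (right) V genes per sample in CPM on a log2 axis, for Myc lymphomas, vector lymphomas and normal spleen, with circles for earlier and triangles for later runs and bars for mean and SD of log2 CPM. The vector lymphomas lie at 691 to 4012 CPM for heavy and 3351 to 10540 CPM for kappa, above every normal sample, and the Myc lymphomas spread over the ranges of the other groups.

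In bulk samples, fewer cells of a type and less RNA per cell cannot be told apart, and 2 other measures moved with the V gene level. Plasma cells, which secrete antibody, carry far more immunoglobulin message than other B cells. Summed over the 8 plasma cell markers found, the level was 919 to 4470 CPM in Myc lymphomas, 4770 to 8430 CPM among vector lymphomas and 614 to 957 CPM in normal samples, and none of these markers was at 0. Most of this sum is Jchain, the joining chain of secreted antibody, with 468 to 3250 CPM in Myc lymphomas, 3510 to 7190 CPM among vector lymphomas and at most 445 CPM in normal samples. Without Jchain the sums of Myc and vector lymphomas overlapped, with 388 to 1420 CPM in Myc lymphomas, 909 to 1490 CPM among vector lymphomas and 394 to 719 CPM in normal samples. Igkc, the kappa constant region, was at 2141 to 13000 CPM in Myc lymphomas, 13290 to 31120 CPM among vector lymphomas and 2269 to 3477 CPM in normal samples. The Myc lymphomas had 1690 to 5350 CPM over the B cell markers and 1520 to 16400 CPM over 5 neutrophil markers, against 47.1 to 5360 CPM among vector lymphomas and 72.0 to 865 CPM in normal samples for the neutrophil markers. Over 5 NK cell markers the level was 104 to 434 CPM in Myc lymphomas, 15.7 to 42.9 CPM among vector lymphomas and 101 to 185 CPM in normal samples, and over 4 erythroid markers 2060 to 47500 CPM in Myc lymphomas, 1800 to 8470 CPM among vector lymphomas and 98.3 to 1310 CPM in normal samples. By median, the other cell types looked for were not highest in Myc lymphomas. Macrophage markers summed to 221 to 908 CPM in Myc lymphomas, 348 to 1850 CPM among vector lymphomas and 479 to 1030 CPM in normal samples. For T cell markers the sums were 697 to 1380, 554 to 1070 and 1100 to 1240 CPM in the same order. For plasmacytoid dendritic cell markers they were 352 to 1710, 711 to 931 and 729 to 837 CPM. The part of these cells in the V gene levels was not tested.

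Set against their own constant regions, the kappa V counts were 22.0 to 42.7% of the Igkc counts in Myc lymphomas, 17.7 to 33.9% among vector lymphomas and 12.6%, 24.8%, 20.2% and 25.3% in the normal samples. On the log2 scale the ratio was 0.51 higher in Myc than in vector lymphomas (exact permutation test, adjusted p = 0.029) and 0.73 higher in Myc lymphomas than in normal samples (adjusted p = 0.029), and differed by 0.22 between vector lymphomas and normal samples (adjusted p = 0.43). The first call did not hold within the earlier runs, where the difference was 0.09 (adjusted p = 0.83), and missed the threshold without Myc lymphoma 1, 4 or 6 or vector lymphoma 1, 2, 3 or 6 (adjusted p up to 0.059). The second missed it within the earlier runs (0.51, adjusted p = 0.31), without Myc lymphoma 6 and without any 1 of the 4 normal samples (adjusted p up to 0.087). Heavy V counts were 1.88 to 6.21% of the heavy constant counts in Myc lymphomas, 2.52 to 11.97% among vector lymphomas and 2.43 to 3.77% in normal samples, and no comparison passed (exact permutation tests, adjusted p = 0.18 or more).

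Gene by gene, the lower V levels of Myc lymphomas against vector lymphomas reached significance for 19 of the 76 members that passed the filter on low counts. Over all 17824 genes tested, 21.9% were called lower and 26.6% higher in this comparison, 48.6% in either direction (edgeR's quasi-likelihood test, Benjamini-Hochberg adjusted p under 0.05). Of the V genes, 7 heavy and 12 kappa genes were lower, a share near the 21.9% of all genes. By contrast 0 V genes were higher, against 26.6% of all genes. None was higher at an unadjusted p under 0.05 either, and DESeq2 called 24 lower and 1 higher. The median log2 fold change was -0.86 over the V genes and 0.08 over all genes. The V genes that passed the filter are those with counts in some group, so their count describes them and not all 86 members.

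Igkv2-137 had the smallest adjusted p and fell to 35.4 ± 23.3 CPM in Myc lymphomas, against 251 ± 241 CPM in vector lymphomas (SD, n = 8 each; log2 fold change -2.83, SE 0.46, edgeR adjusted p = 5.5e-05). Igkv5-39 was at 43.7 to 648 CPM in Myc lymphomas and 241 to 5405 CPM in vector lymphomas, and fell by 2.79 (SE 0.61, edgeR adjusted p = 0.00093). The ranges of the groups overlapped for both genes. Ighv7-1 fell by 4.11 (edgeR adjusted p = 0.0018), with 5.13 to 70.6 CPM in Myc lymphomas and 30.3 to 3287 CPM in vector lymphomas, and without vector lymphoma 4 it fell by 1.435 (adjusted p = 0.021). Ighv7-1 was not called with the run set as a term (-1.633, edgeR adjusted p = 0.42) or within the earlier runs (-0.94, adjusted p = 0.49). Igkv1-99 fell by 3.86 with all samples and was not called without vector lymphoma 8 (-1.225, edgeR adjusted p = 0.13) or by DESeq2 with all samples (-1.141, adjusted p = 0.091). The other named genes that fell were Ighv6-7, Igkv12-98, Ighv1-18, Ighv7-3, Igkv12-89 and Ighv6-6, with log2 fold changes between -2.65 and -1.68. Ighv6-7 and Ighv6-6 lost the call with the run set as a term, and these 2, Ighv1-18 and Ighv7-3 lost it within the earlier runs. Only 2 vector lymphomas remain in those runs, so a call lost there need not mark a smaller difference. The log2 fold changes there were -1.448 for Ighv6-7, -1.869 for Ighv6-6, -2.052 for Ighv1-18 and -1.68 for Ighv7-3. With all samples they were -2.466, -2.108, -1.905 and -1.683. Ighv3-6, the leading heavy gene of Myc lymphomas, was at 164 ± 176 CPM in Myc and 228 ± 108 CPM in vector lymphomas (SD, n = 8 each), with a log2 fold change of -0.48 that did not pass (edgeR adjusted p = 0.47).

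Against normal samples, vector lymphomas had higher levels of 43 of the 76 V genes tested and lower levels of none, 14 of the 43 being heavy and 29 kappa. Of all genes tested, 7.46% were called higher and 3.36% lower, 10.8% in all. At an unadjusted p under 0.05, 65 V genes were higher and 1 lower in edgeR, and DESeq2 called 62 higher and 0 lower. The median log2 fold change was 2.60 over the V genes and -0.03 over all genes. The number of calls depends on the normal samples, with 16 without normal sample 1, 24 without sample 3 and 13 without sample 4, all higher, and within the earlier runs 5 were called. The vector lymphomas are those of the comparison above, so both comparisons share these samples.

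Igkv5-39 rose strongly, with 241 to 5405 CPM in vector lymphomas against 17.7, 97.7, 38.0 and 51.7 CPM in the normal samples (log2 fold change 5.12, SE 0.93, edgeR adjusted p = 0.0013). Igkv2-137 rose by 3.72 (SE 0.64, edgeR adjusted p = 0.00085), with 80.1 to 811 CPM among vector lymphomas and 14.4 to 21.5 CPM in normal samples. For both, all vector lymphomas lay above all normal samples. Igkv17-127 averaged 92.9 ± 39.1 CPM in vector lymphomas and 18.5 ± 5.8 CPM in normal samples, and Ighv6-7 averaged 39.0 ± 32.9 CPM in vector lymphomas and 3.83 ± 1.06 CPM in normal samples (SD, n = 8 and 4). Ighv3-8 rose by 3.71, Ighv6-3 by 2.93, Ighv7-3 by 2.65, Igkv4-57-1 by 3.73 and Igkv4-50 by 3.07 on the log2 scale (edgeR adjusted p = 0.011 or less). Igkv1-131 rose by 5.24 at low levels, with 0.995 ± 1.200 CPM in vector lymphomas and 0.0237 ± 0.0188 CPM in normal samples. It had 1, 2, 0 and 2 counts in the normal samples, so only lymphoma samples carried it through the filter on low counts. Its call is therefore a description and no support for a rise. Igkv17-127 is 98.0% identical to Igkv17-121, so its counts are uncertain. Within the earlier runs, Igkv5-39, Igkv2-137 and Igkv4-50 were still called, as was Igkv1-131 with the limit just given, and the other 6 were not. Log2 fold changes there were 4.803 for Ighv3-8, 3.762 for Ighv6-3, 2.47 for Igkv17-127, 2.571 for Ighv6-7, 3.531 for Igkv4-57-1 and 2.623 for Ighv7-3. Those of Ighv3-8, Ighv6-3 and Igkv17-127 were larger than with all samples, and the others smaller.

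Myc lymphomas, set against normal samples, had higher levels of 30 of the 76 V genes tested, 8 heavy and 22 kappa, and a lower level of 1. Of all genes tested, 21.5% were called higher and 17.9% lower, 39.4% in all. The median log2 fold change was 1.72 over the V genes and 0.08 over all genes, and DESeq2 called 44 higher and 1 lower. Without normal sample 1 there were 15 calls, and within the earlier runs 9. Igkv8-21 rose by 2.46 (SE 0.61, edgeR adjusted p = 0.0035), with 14.4 to 179 CPM in Myc lymphomas and 12.3 to 14.5 CPM in normal samples, and Igkv17-127 rose by 1.67 (SE 0.43, adjusted p = 0.0052). Igkv4-74 rose by 4.46 (edgeR adjusted p = 0.0052), with 5.89 to 393 CPM in Myc lymphomas and 4.55 to 6.76 CPM in normal samples. Ighv3-8 and Igkv4-50 lay above all normal samples in all 8 Myc lymphomas, with log2 fold changes of 3.15 and 2.75. The other named genes that rose were Igkv4-68, Igkv4-80, Igkv4-57, Ighv8-13 and Ighv3-5, by 2.56 to 3.71. Igkv4-68, Igkv4-80 and Ighv8-13 lost the call within the earlier runs, with log2 fold changes of 2.42, 2.829 and 2.595 there. The gene that fell, Igkv13-85, had at most 15 counts in any sample, with 0 to 0.127 CPM in Myc lymphomas and 0.146 to 0.265 CPM in normal samples (log2 fold change -2.93, edgeR adjusted p = 0.017), and it is 97.0% identical to Igkv13-84. Igkv13-85 had 15, 15, 14 and 7 counts in the normal samples, and no Myc lymphoma carried it through the filter on low counts. The call of Igkv13-85 is therefore a description and no support for a fall. Its call was lost within the earlier runs (-2.847, edgeR adjusted p = 0.053).

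Other genes of V gene assembly, mutation and transcription were followed as a list of 26, of which 23 were found by name and 21 were tested. Rag1, the catalytic part of the recombinase that joins V segments, was at 4.07 to 46.8 CPM in Myc lymphomas, 1.72 to 7.10 CPM among vector lymphomas and 2.82, 0.990, 0.973 and 0.543 CPM in normal samples. It rose in Myc lymphomas against vector lymphomas (log2 fold change 1.96, SE 0.49, edgeR adjusted p = 0.0026) and against normal samples (3.48, SE 0.70, adjusted p = 0.00070). The first call was lost within the earlier runs, where the log2 fold change was larger (2.79, edgeR adjusted p = 0.063). Its partner Rag2 was not tested because its counts were too low, and reached 3.61 CPM in Myc lymphoma 5, at most 0.358 CPM in the other Myc lymphomas, 0.0728 CPM in vector lymphomas and 0.0701 CPM in normal samples. Ung, an enzyme that removes uracil from DNA, rose in Myc against vector lymphomas by 0.67 and against normal samples by 0.87. The first of these calls was lost within the earlier runs (0.8714 there, edgeR adjusted p = 0.060).

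Several B cell transcription factors of this list were lower in Myc lymphomas. The summed B cell markers, which include Pax5 and Cd79a, also had their lowest values there and the neutrophil markers their highest, as given above, and the part of these cells was not tested. Ebf1, Pax5, Pou2f2 and Pou2af1, transcription factors that act at immunoglobulin and other B cell genes, fell against vector lymphomas by 1.61, 1.81, 1.56 and 1.62 on the log2 scale without overlap between the groups (edgeR adjusted p at most 1.3e-05). Within the earlier runs Ebf1 and Pou2af1 kept the call, and Pax5 and Pou2f2 lost it (-1.193 and -1.147, edgeR adjusted p = 0.073 and 0.076). Tcf3, Pou2f1 and Irf4, further transcription factors called lower, lost the call with the run set as a term (edgeR adjusted p = 0.44, 0.15 and 0.11). Spib, which fell by 0.968 with all samples, lost the call within the earlier runs (-0.938, edgeR adjusted p = 0.21). Counted over the list, 2 genes were higher and 13 lower in Myc against vector lymphomas, with a median log2 fold change of -0.97, where 26.6% and 21.9% of all genes tested were higher and lower. 2 were higher and 9 lower in Myc lymphomas against normal samples, with a median of -0.58, beside 21.5% and 17.9% of all genes. 2 were higher and 0 lower in vector lymphomas against normal samples, with a median of 0.27, a share near the 7.46% of all genes called higher there. At an unadjusted p under 0.05, 1 gene was lower in that last comparison in edgeR, and DESeq2 called 1 lower. Igkc fell in Myc against vector lymphomas by 1.75 (SE 0.39, edgeR adjusted p = 0.0010) and rose in vector lymphomas against normal samples by 2.93 (SE 0.54, adjusted p = 0.0015). Both calls were lost within the earlier runs, where only 2 vector lymphomas remain. The differences were larger there (-1.994 and 3.166, edgeR adjusted p = 0.065 and 0.099). Ighm, the constant region of IgM, fell in Myc against vector lymphomas by 0.87 (edgeR adjusted p = 0.032) but lost the call without Myc lymphoma 3, 7 or 8 and without vector lymphoma 1, 4 or 8. It also lost the call within the earlier runs, where the difference was larger (-1.319, edgeR adjusted p = 0.095).

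The likeness of V usage between samples was measured by the proportional overlap, the share of counts that samples have in common when every gene is compared. Pairs of Myc lymphomas whose titles share a prefix had a median heavy overlap of 72.2% and those with different prefixes 74.7%, and pairs of vector lymphomas had 62.1% and 64.1%. Pairs of normal samples had 79.7%. For kappa the medians were 70.4% and 70.6% in Myc lymphomas, 53.6% and 51.7% for vector lymphomas and 80.2% in normal samples. What the title prefixes stand for is not given in the labels. Vector lymphomas overlapped normal samples by a median of 59.3% for kappa and 72.5% for heavy genes, and Myc lymphomas by 70.3% and 69.7%. The least alike samples were Myc lymphoma 1 and vector lymphoma 4, with 19.6% for heavy and 29.7% for kappa genes, and the most alike pairs were normal samples, at 88.7% for heavy and 84.4% for kappa genes. Pairs share samples, so these values are a description.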

How the data were processed

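Per the labels' protocols, libraries for Ion Proton sequencing were made from polyadenylated RNA cut with RNase III, with 16 PCR cycles. The authors deposited whole-number raw counts per gene for all 20 samples, and mm9, NCBIM37, HTSeq, Picard 1.119 and BWA 0.7.5a are named, with no role, in the submitters' processing notes. The counting mode and strand setting are not stated in the sources used here. The 5 lines that name no gene held 43.0 to 62.9% of reads per sample and were left out of library sizes and tests. No samples had identical counts.

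Shares, the inverse Simpson index and Wilson 95% intervals were computed from the counts, for samples with at least 200 V counts of a chain, which all had. Summed levels took log2 after adding 1 count. Sample values were compared with exact two-sided permutation tests (scipy 1.17.1). Genes were tested with edgeR 4.0.16 (R 4.3.3, limma 3.58.1; filterByExpr, TMM, quasi-likelihood, all 20 samples in 1 fit, 17824 genes, common biological coefficient of variation 0.47). DESeq2 1.42.0, other size factors, no filter, a run term, the earlier runs alone and leaving out each sample were alternatives. On counts simulated for Myc against vector lymphomas over 17573 genes, the fit recovered 55% of 2-fold and 91% of 4-fold changes and called 0.04% of unchanged genes. V exons were aligned with Biopython 1.88.

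Genes named are, in each lymphoma, the heavy and kappa gene of largest share and the next one at 20% or more; in normal samples the 5 of largest mean share per chain; up to 10 V genes per direction with the smallest adjusted p in each comparison; and called genes of the receptor list and constant genes. Others, such as Ighv3-5, Ighv12-3, Igkv5-48, Igkv17-121, Rag2 and the J segments, were named after their values were seen. Of the receptor list, Ighd, Iglc1 and Iglc3 were not found by name, and 1 gene that enters its counts is not reported here. The members and lists were chosen with earlier results of these data known.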

Additional observations from a re-analysis of the deposited data

Results flagged for a closer look

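In groups of 4 to 10 samples, the highest or lowest sample was compared with its nearest neighbour by Dixon's criterion, for 213 combinations of group and measure. 24 values stood apart, 5 of them Myc lymphoma values, 15 vector lymphoma values and 4 normal values. Chance marks about 1 in 20 groups, but only for measures not chosen by their values. Most of the values below are shares of genes named because they held a large share in some sample, so that rate is no yardstick for them. Several values belong to the same lymphoma or to related measures and are not independent.

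Vector lymphoma 4 stood apart with its largest heavy share of 81.91%, which is its share of Ighv7-1 (nearest vector lymphoma 32.51% for the largest share and 9.177% for Ighv7-1), with an effective number of 1.482 heavy V genes (nearest 6.25), with an Ighj4 share of 47.57% (nearest 30.8%) and with an Ighv7-1 level of 3287 CPM (nearest 133.9 CPM).

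Other lymphomas stood apart in the share of 1 gene of a chain. Among Myc lymphomas these were Igkv15-103 in lymphoma 1 (23.83%, nearest 3.381%), Igkv3-7 in lymphoma 2 (9.179%, nearest 3.734%), and Igkv4-74 (17.27%, nearest 6.084%) and Igkv8-24 (6.555%, nearest 3.987%) in lymphoma 6. Among vector lymphomas they were Ighv14-4 in lymphoma 1 (15.4%, nearest 7.031%), Igkv3-7 in lymphoma 2 (27.9%, nearest 9.848%), Ighv6-6 (32.51%, nearest 13.27%) and Igkv2-137 (17.75%, nearest 7.102%) in lymphoma 3, Igkv17-121 in lymphoma 5 (13.72%, nearest 3.288%), Igkv8-30 in lymphoma 6 (10.96%, nearest 3.306%), and Ighv3-8 (22.77%, nearest 8.864%) and Igkv11-106 (16.55%, nearest 5.952%) in lymphoma 7. Normal sample 4 stood apart in Ighv1-18 with 17.2% (nearest 7.944%).

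In single gene levels, Igkv1-99 reached 567.4 CPM in vector lymphoma 8 (nearest 26.94 CPM) and Pou2af1 was at 323.2 CPM in vector lymphoma 5 (nearest 524.3 CPM). Ikzf1, a transcription factor of lymphoid cells, was at 105.3 CPM in Myc lymphoma 5 (nearest 365.2 CPM). In normal samples, Igkv17-127 was at 9.972 CPM in sample 1 (nearest 20.01 CPM), and in sample 4 Igkv13-85 was at 0.1462 CPM (nearest 0.257 CPM) and Ung at 13.49 CPM (nearest 11.96 CPM).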

How the results depend on the processing

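No paired analysis was possible because the replicate numbers were given in accession order and pair no samples. Within the earlier runs alone (8 Myc, 2 vector and 3 normal samples) no comparison of sample values passed, and those with vector lymphomas could not pass after adjustment. The largest kappa share then differed by -10.45 points (Myc against vector) and 15.39 points (vector against normal), the log2 effective kappa number by 0.9044 and -1.281, the log2 summed heavy level by -1.873 and 2.971 and the summed kappa level by -2.262 and 3.576 (exact permutation tests, adjusted p = 0.3091 each). The log2 ratio of kappa V to Igkc counts differed there by 0.0904 for Myc against vector and 0.5107 for Myc against normal. V genes called there were 11, 5 and 9, and receptor list genes 3, 1 and 6, for Myc against vector, vector against normal and Myc against normal. The receptor list had 5 calls for vector against normal by DESeq2 and 4 with the run set as a term.

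Without Igkv5-39, chosen after seeing the data, the largest kappa share differed by -6.512 points for Myc against vector and 10.2 points for vector against normal, the log2 effective kappa number by 0.5018 and the summed kappa level by -1.112 for Myc against vector, and the kappa V to Igkc ratio by -0.2689 for vector against normal, which turned its direction, and 0.6715 for Myc against normal. Without genes that have a near-identical relative, also chosen after seeing the data, the largest kappa share differed by -18.43 points for Myc against vector (exact permutation test, adjusted p = 0.087). A gene over 30% of the heavy chain, or 2 largest genes together over 50%, was found in 1 Myc and 2 vector lymphomas. By cosine similarity the median heavy likeness was 86.18% and 85.61% for Myc pairs of different and of the same prefix, 80.68% for Myc with normal and 88.87% for normal pairs, and the kappa likeness 80.13%, 77.74%, 78.94% and 89.38%, with 73.32% and 78.5% for vector pairs. The cause of these changes was not tested.

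Leaving out 1 sample at a time, the ranges were as follows. The largest heavy share differed by -10.13 to -0.6286 for Myc against vector, 6.402 to 15.9 for vector against normal and 3.524 to 7.095 for Myc against normal. The largest kappa share differed by -20.77 to -13.01 for Myc against vector, 18.63 to 26.39 for vector against normal and 4.242 to 6.741 for Myc against normal. The log2 effective heavy number differed by 0.2074 to 0.6189 for Myc against vector, -0.6701 to -0.2845 for vector against normal and -0.1283 to 0.03622 for Myc against normal. The log2 effective kappa number differed by 0.9709 to 1.389 for Myc against vector, -1.841 to -1.423 for vector against normal and -0.5514 to -0.3573 for Myc against normal. The log2 summed heavy level differed by -2.101 to -1.591 for Myc against vector, 2.79 to 3.153 for vector against normal and 0.8975 to 1.407 for Myc against normal. The log2 summed kappa level differed by -1.767 to -1.331 for Myc against vector, 2.859 to 3.301 for vector against normal and 1.314 to 1.795 for Myc against normal. The log2 heavy V to constant ratio differed by -0.5947 to -0.2491 for Myc against vector, 0.3202 to 0.6411 for vector against normal and -0.06664 to 0.1791 for Myc against normal. The log2 kappa V to Igkc ratio differed by 0.4504 to 0.593 for Myc against vector, 0.002678 to 0.3363 for vector against normal and 0.5107 to 0.8443 for Myc against normal. Called V genes numbered 15 to 26 for Myc against vector, 13 to 46 for vector against normal and 15 to 38 for Myc against normal. Called receptor list genes numbered 13 to 17 for Myc against vector, 2 to 3 for vector against normal and 9 to 15 for Myc against normal. The correlation of largest heavy and kappa shares was -0.7701 to -0.4787 in Myc and -0.51 to 0.9484 in vector lymphomas. The direction turned for the effective heavy number of Myc against normal without Myc lymphoma 4 (0.03622), for the heavy V to constant ratio of Myc against normal without Myc lymphoma 2 (-0.06664) or normal sample 4 (-0.03565), and for the correlation in vector lymphomas without lymphoma 4 (-0.51). The largest kappa share of Myc against normal passed without Myc lymphoma 3 (6.741 points, exact permutation test, adjusted p = 0.048). Other size factors, no filter on low counts, library sizes without immunoglobulin genes, shares per kilobase and a minimum of 1000 V counts changed no call among the sample values, and no count of called genes by over 1.5 times. Among single named genes, Tcf3 lost its call for Myc against normal with other size factors and with library sizes without immunoglobulin genes (edgeR adjusted p = 0.052 each).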
